A study of Mus musculus with 6 samples.

Results

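The expression profile of the aortic wall was described from the 3 libraries of WT mice, out of 6 libraries in the series. The 3 were chosen by their genotype label, and each holds RNA of the aorta of male WT mice, read as DNA nanoballs. The other 3 libraries came from *Npr1*+/- males, heterozygous knockouts made with CRISPR-Cas9, and no comparison with them was made. *Npr1* encodes a receptor that atrial and brain natriuretic peptides bind, and the study asked how its loss changes adhesion in the vessel wall. The age, strain and diet of the mice, the segment of aorta taken and whether a library stands for 1 animal or a pool are not given in the sources used here, so that the spread between the libraries may be of animals or of handling.

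The wall of the aorta is built in layers. An inner lining of endothelial cells faces the blood, a thick media of smooth muscle cells lies between sheets of elastin, and an outer adventitia holds fibroblasts, collagen, small vessels and nerves. Fat surrounds the vessel, and around the thoracic aorta of the mouse this fat has the features of brown fat, which burns lipid to make heat through the uncoupling protein of its mitochondria. RNA of the whole tissue mixes all of these cells, and fewer cells of a type cannot be told apart from less RNA per cell.

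The libraries held 13510970 estimated counts in WT 1, 15854447 in WT 2 and 16664343 in WT 3. A level is given as FPKM, fragments set against transcript length and library size, which can be compared between genes. The share of a gene list is the percent that its genes took of the summed FPKM of a library, which approximates a share of transcripts. A count of 3 was taken as the floor of detection and equals 0.222, 0.189 and 0.180 CPM, counts scaled to library size, in WT 1, WT 2 and WT 3, which covers counting error only.

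WT 1 stood apart from the other libraries. Across the 12119 genes whose mean FPKM was 1 or more, Pearson's r of log2(FPKM + 0.1) was 0.984 between WT 2 and WT 3, 0.941 between WT 1 and WT 2 and 0.940 between WT 1 and WT 3. These are correlations across genes, which are not independent. The number of genes that differed over 2-fold was 225 between WT 2 and WT 3, against 1221 and 1387 for the pairs with WT 1. The squared deviation of each gene between WT 2 and WT 3 was divided by the variance of counting error. The median of this ratio was 2.49, which shows only that the counts of these libraries differed beyond sampling noise. Values are therefore given for each library, and the means of the main lists and markers also without WT 1.

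**Figure D1:**
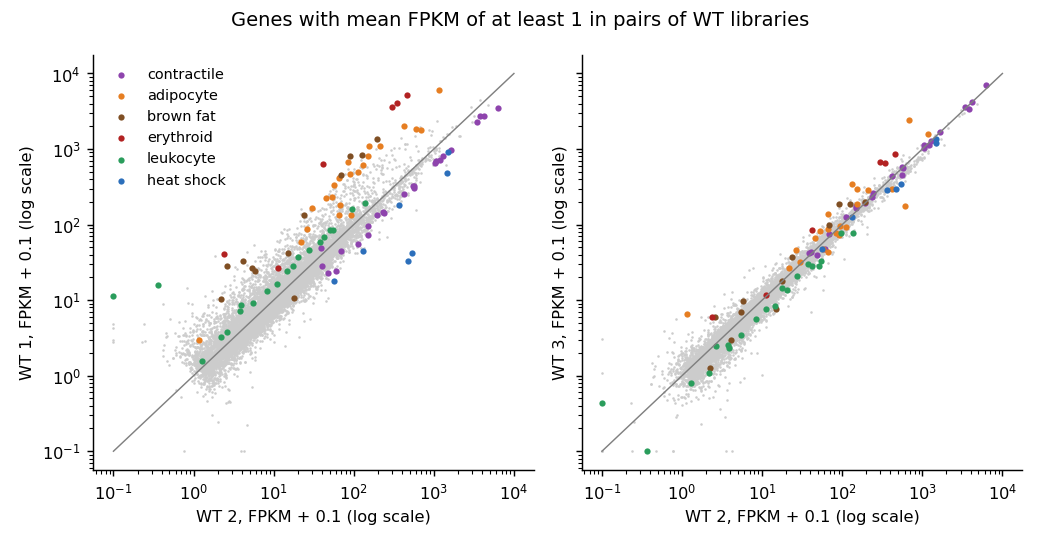
FPKM + 0.1 of the 12119 genes whose mean FPKM was 1 or more (grey), on log axes, in WT 1 against WT 2 (left) and in WT 3 against WT 2 (right), with the genes of 6 lists in colour and the line of equality. The points lie close to the line on the right, where 225 genes differed over 2-fold, while on the left most fat genes and the red cell genes lie above it and most contractile and heat shock genes below.

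Of 18191 genes in the table, 12119 reached a mean FPKM of 1, or 66.6%, and they held 99.7% of the mean summed FPKM. In every library taken alone 11583 genes reached it, and 998 genes did so in some libraries but not in all. Just inside the threshold lay *Pnma1*, at 0.75, 1.28 and 0.97 FPKM in WT 1, WT 2 and WT 3, and *Smc2*, at 1.02, 0.96 and 1.02 FPKM. Just outside lay *Nkain3*, at 1.22, 1.18 and 0.59 FPKM, and *Hoxd9*, at 1.06, 1.56 and 0.37 FPKM. Genes at this level stood on either side of 1 from library to library.

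The profile was steep. A set of 41 genes at 1000 FPKM or more held 17.1% of the mean summed FPKM, and 734 genes between 100 and 1000 FPKM held a further 41.7%. The 5674 genes between 10 and 100 FPKM held 35.1%, and the 5670 genes between 1 and 10 FPKM held 5.78%. Of the rest, 5251 genes had a mean above 0 but below 1 and 821 were listed at 0 in all 3 libraries. The 10 most abundant genes took 6.77%, 8.16% and 8.37% of the FPKM of WT 1, WT 2 and WT 3, and the 100 most abundant took 26.8%, 27.2% and 26.5%. The share of the 10 was thus lowest in WT 1, while that of the 100 was nearly equal in the libraries.

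**Figure D2:**
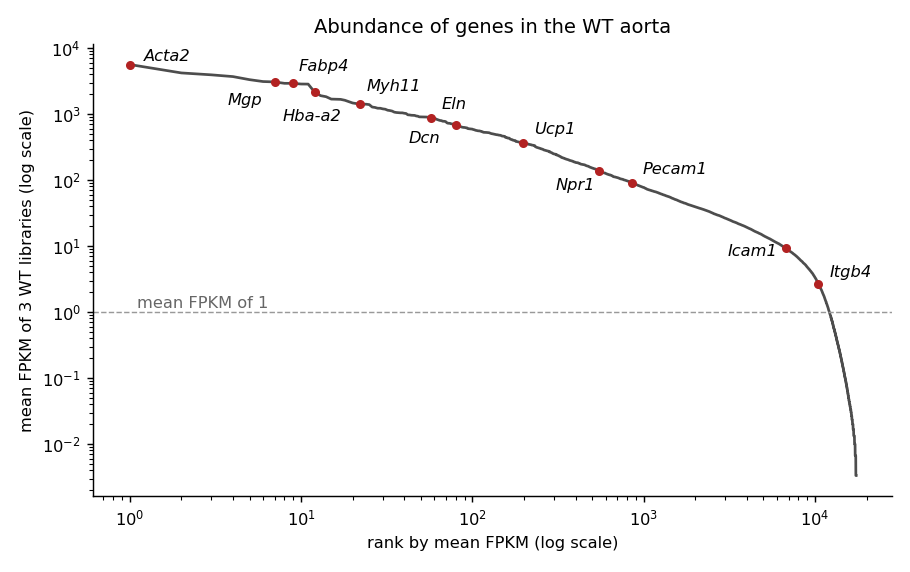
Mean FPKM of the 3 WT libraries against the rank of the gene, both on log scales, with named genes in red and a mean FPKM of 1 as a dashed line. *Acta2* is first at a mean of 5634 FPKM, *Myh11* is 22nd and *Pecam1* 852nd, and the curve meets the dashed line after 12119 genes.

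By mean FPKM, smooth muscle genes led the ranking, although not in each library. *Acta2* was first in WT 2, in WT 3 and in their mean, but eighth in WT 1, behind *Fabp4* of fat cells, *Hba-a2*, *Hbb-bs* and *Hba-a1* of red cells, *Fth1*, *Tmsb4x* and *Mgp*. Among the 25 genes of highest mean were 5 contractile genes, 2 of the matrix, 2 of fat, 3 of haemoglobin, 2 of ribosomal proteins and *Cst3*, the gene of the protease inhibitor cystatin C. The haemoglobin genes owed their places to WT 1, since 3 of them were among the 25 most abundant genes there, 0 in WT 2 and 0 in WT 3. *Hba-a2* ranked 2nd in WT 1, 143rd in WT 2 and 46th in WT 3. The remaining 10 of the 25 were in none of these lists. Several of them serve the cytoskeleton, namely *Tmsb4x*, which encodes the actin-binding thymosin beta 4, *Vim* for vimentin, *Actb* for beta actin and *Dstn* for the actin-severing destrin. The others were *Fth1*, the heavy chain of ferritin, *Eef1a1*, a translation elongation factor, *Tpt1*, the prolyl isomerase gene *Ppia*, *Igfbp7* for an insulin-like growth factor binding protein, and *Gm20594*. The last is a nuclear copy related to mitochondrial ribosomal RNA, whose reads cannot be told apart from those of the mitochondrial gene, and its 2337, 1094 and 987 FPKM are uncertain. No gene of the mitochondrial genome was among the genes listed.

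*Acta2*, the smooth muscle actin and the most abundant gene (chr19:34240336-34255585, RefSeq annotation of GRCm38.p6), stood at 3532 FPKM in WT 1, 6258 in WT 2 and 7113 in WT 3, or 5634 ± 1870 FPKM (SD, n = 3), and 6685 without WT 1. It alone took 0.698%, 1.40% and 1.64% of the summed FPKM of the libraries. *Tagln*, which encodes the actin-binding transgelin, stood at 2771, 4186 and 4144 FPKM. WT 1 was the lowest library for both. The regulatory and essential light chains of smooth muscle myosin, *Myl9* and *Myl6*, stood at 2312, 3456 and 3569 FPKM and at 2775, 3812 and 3385 FPKM. The heavy chain *Myh11* (chr16:14194527-14292188), the defining marker of smooth muscle, stood at 967, 1644 and 1659 FPKM, or 1423 ± 395 FPKM (SD, n = 3), and 1652 without WT 1. Its WT 2 and WT 3 values differed by far less than either differed from WT 1.

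The 24 contractile genes together took 3.41%, 6.11% and 6.43% of the summed FPKM in WT 1, WT 2 and WT 3, or 5.32% ± 1.66 (SD, n = 3), and 6.27% over WT 2 and WT 3. All 24 had a mean of at least 10 FPKM and 18 of at least 100. The filamin gene *Flna*, which links actin filaments, reached 806, 1297 and 1288 FPKM, and *Cnn1*, the gene of calponin, 714, 1208 and 1139 FPKM. The list kept to 1 pattern, because WT 1 was the lowest library for 23 of the 24 genes, against 42.3% of all 12119 genes. This count was 23 also on counts scaled by TMM or by DESeq2 and on the share of FPKM, a scale on which WT 1 was lowest for 59.3% of all genes. Myocardin, the coactivator that drives this program together with serum response factor, had 23.9, 60.1 and 47.5 FPKM for its gene *Myocd*, and *Srf* had 27.9, 40.4 and 42.8 FPKM. The drivers thus stood at ranks 1775 and 2150, far below the genes of the filament proteins. *Actg2*, at 132, 194 and 192 FPKM, is close in sequence to *Acta2*, and reads may be shared between the actin genes.

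The contractile genes are known as targets of serum response factor, which binds the CArG box. Promoters of RefSeq on GRCm38.p6, from 250 bases before to 50 after a start site, were searched on both strands for its exact form. This form is CCWWWWWWGG, where W is A or T, and boxes with G or C in that core were not counted. The exact form was found for 1.81% of the 27025 genes with a promoter in the table, and for 4 of the 19 contractile genes that had one, or 21.1%. These were *Myl6*, *Myl9*, *Srf* and *Vcl*, while *Acta2* and *Cnn1* held no exact match in this window and *Tagln* and *Myh11* had no entry. For *Myl6* the box lay before a start site inside the gene. The stretches for *Myl9* (chr2:156775214-156775407, plus strand) and for *Vcl*, which encodes the adhesion protein vinculin (chr14:20929148-20929382, plus strand), are shown as examples, cut where the annotated gene begins and with the box in capitals. It begins 161 bases before the tabled start site of *Myl9* and 227 bases before that of *Vcl*. A match is a stretch of letters and no record of binding.
Myl9: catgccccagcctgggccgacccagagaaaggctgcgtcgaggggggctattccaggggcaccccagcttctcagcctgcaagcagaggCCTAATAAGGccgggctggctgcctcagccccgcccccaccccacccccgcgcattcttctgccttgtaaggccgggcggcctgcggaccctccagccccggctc
Vcl: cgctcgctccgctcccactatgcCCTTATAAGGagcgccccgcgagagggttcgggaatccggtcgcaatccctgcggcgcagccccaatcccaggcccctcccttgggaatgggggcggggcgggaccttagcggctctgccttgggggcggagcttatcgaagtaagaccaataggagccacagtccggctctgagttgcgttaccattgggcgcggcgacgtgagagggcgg

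Matrix genes took 2.61%, 3.67% and 3.46% of the summed FPKM, or 3.25% ± 0.560 (SD, n = 3), and 3.57% without WT 1. Proteoglycans and glycoproteins made up most of it, with 1.81%, 2.36% and 2.23%. The elastic fibre genes took 0.456%, 0.745% and 0.712%, and the collagens 0.350%, 0.569% and 0.515%. *Mgp*, whose protein keeps the wall from calcifying, had the highest mean of the matrix genes, seventh of all genes, at 3599, 2899 and 2719 FPKM. Unlike the contractile genes it was highest in WT 1. *Bgn*, which encodes the small proteoglycan biglycan, had 2291, 3276 and 2975 FPKM, above *Mgp* in WT 2 and WT 3. *Sparc*, which encodes a collagen-binding protein, followed at 740, 988 and 861 FPKM.

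*Eln* (chr5:134702595-134747368), the gene of elastin and the defining gene of the elastic layers, stood at 628, 1038 and 991 FPKM, or 886 ± 224 FPKM (SD, n = 3), at rank 57, and 1014 without WT 1. The microfibril gene *Mfap4* had 386, 592 and 460 FPKM and *Fbln5*, which is needed to assemble elastic fibres, 164, 245 and 251 FPKM. *Lox* and *Loxl1*, whose enzymes cross-link elastin and collagen, had 40.3, 62.2 and 61.7 FPKM and 119, 157 and 146 FPKM. *Fbn1*, the main fibrillin of microfibrils, had 32.5, 44.2 and 34.9 FPKM, whereas the developmental fibrillin *Fbn2* was listed at 0, 0.03 and 0 FPKM. WT 1 was lowest for 14 of the 19 elastic fibre genes with a mean of at least 1 FPKM, against 42.3% of all 12119 genes. This was less uniform than in the contractile list.

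Of the 44 collagen genes listed, 28 reached a mean of 1 FPKM. *Col18a1* of the basement membrane had the highest mean, at 230, 378 and 413 FPKM, but led in WT 3 only. The fibrillar collagens followed by mean, with *Col1a2* at 274, 379 and 299 FPKM, above *Col18a1* in WT 1 and narrowly in WT 2. *Col3a1* had 218, 364 and 238 FPKM and *Col1a1* 226, 330 and 209 FPKM. WT 2 was the highest library for these fibrillar genes, and for 17 of the 28 collagens, against 34.3% of all 12119 genes. WT 1 was the lowest library for 18 of the 28 on FPKM, 17 on either scaled count and 22 on the share of FPKM. All genes gave 42.3% on FPKM, 41.6% and 43.9% on counts scaled by TMM and DESeq2, and 59.3% on the share of FPKM. The cartilage collagen *Col2a1* had 0.04, 0.08 and 0 FPKM.

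Fibroblast genes did not follow the contractile genes. *Dcn* (chr10:97479500-97518163), which encodes the proteoglycan decorin and marks adventitial fibroblasts, stood at 749, 806 and 496 FPKM, or 684 ± 165 FPKM (SD, n = 3), and 651 without WT 1. *Pi16*, a marker of adventitial fibroblasts, had 207, 175 and 102 FPKM, and *Pdgfra*, the growth factor receptor of fibroblasts, 15.4, 12.8 and 7.71 FPKM. WT 3 was the lowest library for each of the 13 fibroblast genes, also on scaled counts and on the share of FPKM. Over all genes WT 3 was lowest for 35.1% on FPKM, 29.7% and 25.3% on counts scaled by TMM and DESeq2, and 21.5% on the share of FPKM. The list took 0.557%, 0.584% and 0.417%. *Dcn*, *Lum* and *Col14a1* are in the matrix lists too. The 6 mural genes, by contrast, took 0.0611%, 0.186% and 0.187%. *Rgs5*, a regulator of G protein signalling in pericytes and arterial muscle, was the highest of the 6 at 154, 599 and 573 FPKM. It ranged 3.89-fold, while the other mural genes each ranged less than 2-fold.

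Endothelial genes were a minor share of 0.116%, 0.0938% and 0.125%, or 0.112% ± 0.0161 (SD, n = 3), and 0.109% without WT 1. *Pecam1* (chr11:106654213-106715281), which encodes a junction protein of the endothelium, was the most abundant, at 81.9, 69.7 and 121 FPKM, or 90.8 ± 26.6 FPKM (SD, n = 3) and 95.2 without WT 1, and no gene of the list reached a mean of 100. *Eng*, a coreceptor for transforming growth factor beta, had 58.7, 40.7 and 48.3 FPKM. *Cdh5*, the cadherin of endothelial junctions, had 31.3, 16.3 and 26.7 FPKM. *Nos3*, the endothelial nitric oxide synthase, had 14.1, 10.5 and 14.5 FPKM. All 27 genes passed a mean of 1 FPKM, and WT 2 was the lowest library for 22 of them on FPKM, 23 and 24 on counts scaled by TMM and DESeq2, and 20 on the share of FPKM. Over all genes this was 22.7%, 28.7%, 30.8% and 19.2% on the same scales. The endothelial list thus set WT 2 below the others, where the contractile list set WT 1 below. *Kdr*, a receptor for vascular endothelial growth factor, had 13.7, 4.04 and 6.08 FPKM, with WT 1 the highest.

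**Figure D3:**
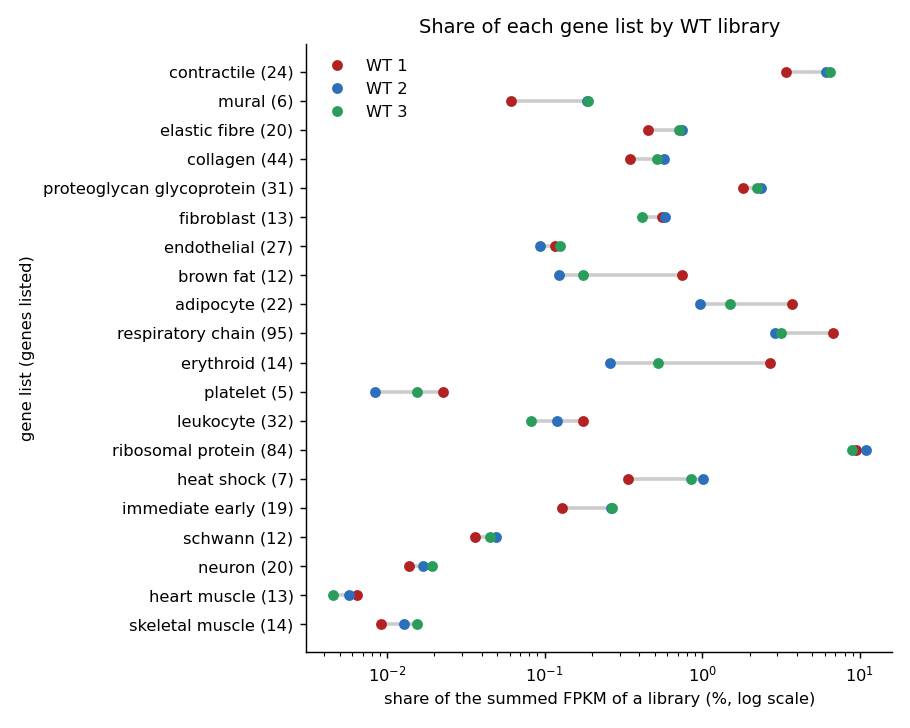
Percent of the summed FPKM of a library taken by each of 20 gene lists, on a log axis, with 1 point per WT library, a grey bar from the lowest to the highest, and the number of genes listed in brackets. The contractile list runs from 3.41% in WT 1 to 6.43% in WT 3, the erythroid list from 0.258% in WT 2 to 2.68% in WT 1, and the ribosomal protein list from 8.93% to 10.9%.

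Fat genes were abundant in all libraries and highest in WT 1. The 34 genes took 4.47%, 1.09% and 1.68% of the summed FPKM, or 2.41% ± 1.80 (SD, n = 3), and 1.39% without WT 1. *Fabp4*, the lipid chaperone of fat cells, stood at 5995, 1173 and 1597 FPKM, and was more abundant in WT 1 than *Acta2*. *Adipoq*, which encodes the hormone adiponectin, had 499, 112 and 92.8 FPKM, *Plin1*, which coats the lipid droplet, 223, 45.5 and 66.9 FPKM, and *Cfd*, the adipokine adipsin, 1842, 602 and 178 FPKM. *Scd1*, the desaturase that makes monounsaturated fatty acids, broke the pattern with 1774, 685 and 2401 FPKM. It was highest in WT 3, as was *Lep*, the gene of leptin, at 2.91, 1.06 and 6.40 FPKM, and WT 1 was highest for the other 20 of the 22 adipocyte genes. Over all genes WT 1 was highest for 41.0%.

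The brown fat genes were present in each library. *Ucp1* (chr8:83290348-83298456), the uncoupling protein and defining marker, stood at 811, 90.4 and 186 FPKM, or 362 ± 392 FPKM (SD, n = 3) and 138 without WT 1, an 8.96-fold range, and its counts were 17949, 2343 and 5050. *Cidea*, whose protein sits on lipid droplets, had 845, 125 and 187 FPKM, *Cox8b*, a subunit of cytochrome c oxidase, 1339, 194 and 199 FPKM, and the transcriptional coactivator *Ppargc1a* 10.3, 2.12 and 1.17 FPKM. WT 1 was highest for 11 of the 12 genes, against 41.0% of all 12119 genes. The exception was *Prdm16*, a regulator of brown fat identity that other cells also express, at 10.6, 17.8 and 17.8 FPKM. Genes of the respiratory chain encoded in the nucleus followed the fat genes, with 6.80%, 2.89% and 3.17% of the FPKM. WT 1 was the highest library for 89 of the 91 with a mean of at least 1 FPKM, against the same 41.0%. Among them *Atp5b*, a subunit of ATP synthase, had 1412, 389 and 528 FPKM and *Cox4i1*, of cytochrome c oxidase, 1179, 469 and 493 FPKM. *Cox7a1* and *Cox8b* are in both lists.

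Blood genes took 2.88%, 0.387% and 0.624%, or 1.30% ± 1.38 (SD, n = 3), and 0.506% without WT 1. The haemoglobin genes made most of this. *Hba-a2* stood at 5157, 459 and 847 FPKM, an 11.2-fold range, and *Hbb-bs* at 4062, 344 and 657 FPKM. *Alas2*, which starts haem synthesis in red cells, had 41.3, 2.29 and 5.96 FPKM. The copies *Hba-a1* and *Hba-a2*, and *Hbb-bs* and *Hbb-bt*, are nearly identical, so that how the reads were split between them is uncertain. WT 1 was the highest and WT 2 the lowest library for all 6 erythroid genes with a mean of at least 1 FPKM. Over all 12119 genes WT 1 was highest for 41.0% and WT 2 lowest for 22.7%. As 4 of the 6 are these haemoglobin copies, they are not separate observations. Without the 4 haemoglobin genes in list and sum, the blood genes took 0.151%.

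Leukocyte genes took 0.175%, 0.120% and 0.0825% and fell into another order. WT 1 was highest for all 20 genes that passed a mean of 1 FPKM, against 41.0% of all 12119 genes. WT 3 was lowest for 19, or 18 on counts scaled by DESeq2, where all genes gave 35.1% and 25.3%. They were mostly genes of macrophages and of antigen presentation. *Lyz2*, the lysozyme of myeloid cells, had 195, 138 and 78.3 FPKM, *C1qa* of the complement system 85.7, 54.8 and 32.4 FPKM, and *Cd74*, the invariant chain of class II molecules, 162, 96.1 and 76.3 FPKM. *Ptprc*, which marks all leukocytes, was near the threshold with 1.46, 1.18 and 0.70 FPKM, and the T cell gene *Cd3e* had 0.36, 0.22 and 0.04 FPKM. *S100a8* and *S100a9*, which encode a protein pair abundant in neutrophils, were seen nearly only in WT 1, at 55, 0 and 2 counts and at 106, 2 and 0 counts. They passed the mean of 1 FPKM only through WT 1, so the filter itself fixed WT 1 as their highest library. Both genes therefore add nothing to the count of 20. *Ptprc* also needed WT 1 to reach that mean. Platelet genes summed to 0.0227%, 0.00840% and 0.0156%, led by *Pf4* at 49.5, 25.5 and 28.4 FPKM.

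**Figure D4:**
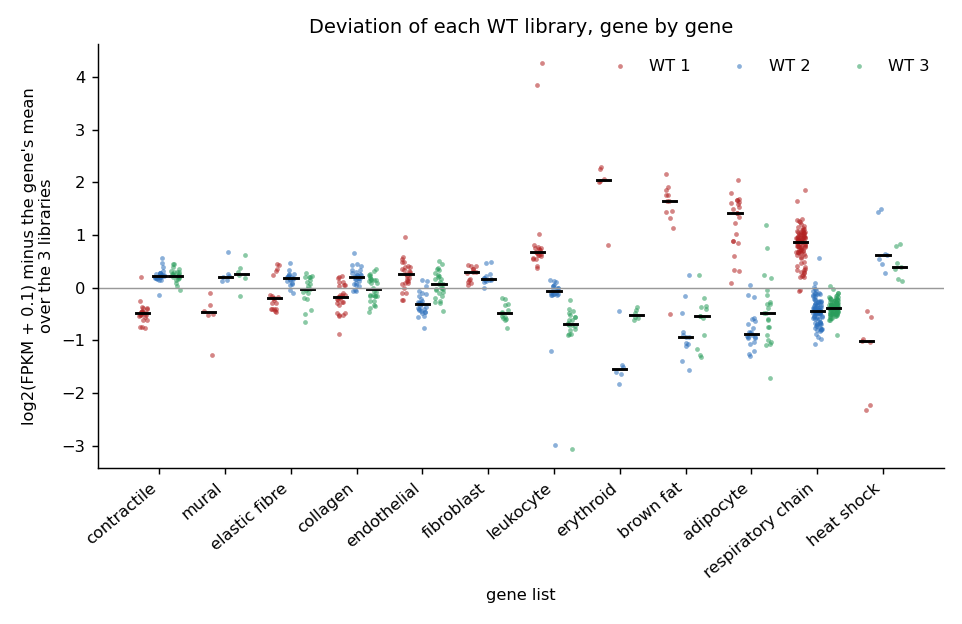
Deviation of each WT library from the mean of the 3 on the log2(FPKM + 0.1) scale, for the genes of 12 lists that reached a mean of 1 FPKM, with 1 point per gene and library and black lines at the medians. In WT 1 the median lies at 2.05 for the erythroid list, 1.64 for brown fat and 0.87 for the respiratory chain, and at -0.48 for the contractile and -1.02 for the heat shock list, whereas WT 2 is the lower library for the endothelial list, at -0.31.

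A lower share of one list follows from a higher share of another, since shares sum to the whole. The fat, blood and respiratory chain genes together took 13.8%, 4.31% and 5.40% of the summed FPKM. With them left out of the sum, the contractile share became 3.95%, 6.39% and 6.80%, still lowest in WT 1. The matrix share became 3.03%, 3.84% and 3.65% and the endothelial share 0.135%, 0.0981% and 0.132%. Leaving them out thus brought the contractile share of WT 1 nearer to the others, and WT 1 stayed the lowest. The part of these genes in the position of WT 1 was not tested.

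The median SD of log2(FPKM + 0.1) over the 3 libraries was 0.219 among the genes with a mean of at least 1 FPKM, and 0.107 between WT 2 and WT 3. It was 0.427 for the contractile, 0.323 for the matrix, 0.393 for the endothelial, 1.30 for the fat and 0.732 for the blood genes. Between WT 2 and WT 3 alone these were 0.0602, 0.137, 0.247, 0.376 and 0.536. The contractile genes were thus more even than all genes in these libraries, while the endothelial, fat and blood genes were less even. Highest and lowest library differed over 2-fold for 1727 genes, or 14.3% of the 12119. WT 1 was the highest or the lowest library for 1645 of these, or 95.3%, and for 83.2% of all 12119 genes. A difference over 2-fold was found for 5 of 24 contractile, 7 of 77 matrix, 2 of 27 endothelial, 32 of 34 fat and 25 of 31 blood genes.

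At a mean of 100 FPKM or more, *Cyp2e1*, a cytochrome of drug metabolism, had the widest range with 313, 57.1 and 13.7 FPKM, and *Gpx3*, the secreted glutathione peroxidase, had 1319, 201 and 91.9 FPKM. WT 1 was the highest and WT 3 the lowest library for both. The steadiest genes at this level were *Cenpb*, a centromere protein, at 125, 125 and 125 FPKM, and then *Sumo2*, *Fkbp1a*, *Arf4* and *Gnb1*, of which *Sumo2* had 185, 184 and 184 FPKM. These 5 genes ranged 1.02-fold at most between libraries in which *Acta2* ranged 2.01-fold. *Gapdh*, a glycolytic gene often used as a reference, was not among the steady genes, at 1771, 868 and 1042 FPKM, while *Ppia* had 1412, 1387 and 1442 FPKM. *Gapdh* was named after its values were seen.

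Heat shock genes were far lower in WT 1, with a median SD of log2(FPKM + 0.1) of 0.883. The 7 genes took 0.339%, 1.01% and 0.851% of the summed FPKM, and WT 1 was lowest for each of the 7 on every scale tried. Over all genes WT 1 was lowest for 42.3% on FPKM and 59.3% on the share of FPKM. On counts scaled by TMM and DESeq2 this was 41.6% and 43.9%. The inducible chaperones *Hspa1b* and *Hspa1a* stood at 42.2, 537 and 340 FPKM and at 33.4, 471 and 296 FPKM, the small heat shock protein *Hspb1* at 487, 1468 and 1215 FPKM, and the constitutive *Hspa8* at 912, 1493 and 1377 FPKM. The inducible pair thus ranged 12.7-fold and 14.1-fold. *Hspa1a* and *Hspa1b* are close copies, and how reads were split between them is uncertain. Immediate early genes, which respond to stimuli within minutes, took 0.130%, 0.264% and 0.270%. WT 1 was lowest for 14 of 18 on FPKM and 15 on the share of FPKM, where all genes gave 42.3% and 59.3%. Of the immediate early genes *Ccn1* had 68.9, 257 and 263 FPKM and *Atf3* 10.6, 47.4 and 29.5 FPKM. *Fos* had 6.85, 16.8 and 15.3 FPKM, while *Klf4* was even at 30.3, 31.3 and 27.7 FPKM.

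Heat shock factor binds repeats of GAA and its reverse complement, and GAANNTTC is the inverted pair of 8 bases. It reads the same on both strands. This stretch was present in a promoter of 9.04% of the 27025 genes and of 4 of the 5 heat shock genes with an entry, namely *Hspa1a*, *Hspa1b*, *Hspb1* and *Hsph1*. The 250 bases before the start sites of *Hspa1a* (chr17:34972157-34972406, minus strand) and *Hspa1b* (chr17:34959239-34959488, minus strand) are shown to compare the copies, with the stretch in capitals. They have the same base at 247 of 250 positions, and the stretch begins 104 bases before the start site in both. This window says nothing of binding in these tissues.
Hspa1a: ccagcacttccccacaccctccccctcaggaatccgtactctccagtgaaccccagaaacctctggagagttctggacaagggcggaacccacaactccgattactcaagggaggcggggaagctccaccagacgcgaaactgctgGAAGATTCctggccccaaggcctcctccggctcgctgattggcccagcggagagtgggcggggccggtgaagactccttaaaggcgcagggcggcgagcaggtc
Hspa1b: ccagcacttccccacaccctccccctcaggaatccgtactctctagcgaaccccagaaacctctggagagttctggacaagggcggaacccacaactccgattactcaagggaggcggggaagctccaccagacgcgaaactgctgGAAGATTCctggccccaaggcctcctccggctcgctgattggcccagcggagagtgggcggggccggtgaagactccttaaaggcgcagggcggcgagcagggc

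Hox genes, which record position along the body axis, were mostly those of anterior and middle paralogue numbers. Of 35 listed, 25 reached a mean of 1 FPKM. Genes of paralogue numbers 1 to 8 summed to 177, 230 and 215 FPKM, led by *Hoxb2* at 23.0, 31.9 and 31.4 FPKM, although paralogue 1 alone gave only 1.82, 2.33 and 1.91 FPKM. Those of numbers 9 to 13 summed to 3.93, 16.3 and 8.93 FPKM. No gene of paralogue 11, 12 or 13 reached a mean of 1 FPKM. The posterior genes also differed more between libraries, and *Hoxc10* had 0.12, 4.49 and 1.57 FPKM and *Hoxa10* 0.34, 2.45 and 1.77 FPKM in WT 1, WT 2 and WT 3. How much of the aorta's length each library holds is not given in the sources used here.

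**Figure D5:**
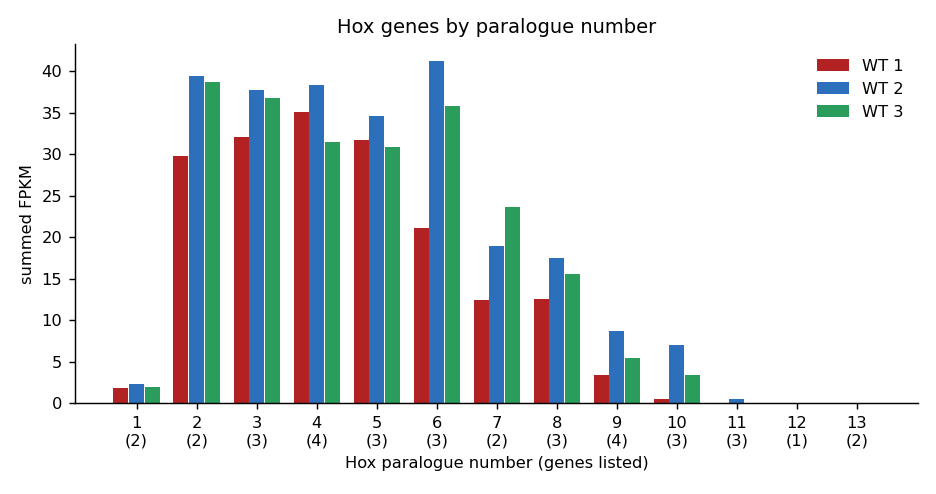
Summed FPKM of the Hox genes of each paralogue number, on a linear axis from 0, with 1 bar per WT library and the number of genes listed in brackets. Paralogues 2 to 6 stand highest, for example at 29.8, 39.4 and 38.7 FPKM for paralogue 2, and paralogue 10 at 0.50, 7.08 and 3.38 FPKM.

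The genes the study is about spanned the ranking. *Npr1* (chr3:90450591-90465928) ranked 545th at 112, 153 and 152 FPKM, or 139 ± 23.1 FPKM (SD, n = 3) and 152 without WT 1. WT 1 was its lowest library, as for 42.3% of all 12119 genes. *Npr2*, the receptor for C-type natriuretic peptide, had 38.4, 50.3 and 44.5 FPKM and the clearance receptor *Npr3* 2.92, 4.55 and 6.33 FPKM. *Gucy1b1* and *Gucy1a1*, the subunits of the nitric oxide receptor that also makes cyclic GMP, had 41.2, 67.1 and 81.1 FPKM and 35.4, 52.0 and 53.9 FPKM. *Icam1*, the adhesion molecule for leukocytes, had 10.8, 7.53 and 9.37 FPKM. *Itgb4*, the integrin subunit that binds laminin, was low but even, with 2.54, 2.67 and 2.79 FPKM from 214, 261 and 285 counts. *Npr1* was thus higher than every other gene named here for the natriuretic peptide and nitric oxide pathways, and both adhesion genes lay below the median of 11.0 FPKM of the genes with a mean of at least 1.

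Ribosomal protein genes took the largest share of any list, 9.47%, 10.9% and 8.93% of the summed FPKM, and 36 of the 100 most abundant genes were among them. Their short transcripts made this share much smaller in reads, at 3.30%, 3.39% and 2.71% of the estimated counts. On FPKM, WT 3 was the lowest library for 76 of 81 genes, against 35.1% of all genes. This count was 76 and 72 on counts scaled by TMM and DESeq2 but 49 on the share of FPKM, on which WT 1 was lowest for 32. *Rpl41*, the most abundant of them, had 2038, 1871 and 1125 FPKM, and many of these genes have pseudogenes that may share reads.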

How the data were processed

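The tissue was the aorta of male mice, and RNA was extracted with Trizol. The authors filtered reads with SOAPnuke, aligned them with Bowtie2 to a set of coding genes and estimated expression with RSEM. They deposited FPKM for each library, which is scaled by transcript length and library size, and estimated counts without normalization. Build mm10 and DESeq2 1.4.5 are named in the submitters' processing notes. That the values are FPKM and not TPM was read from the values, whose sum differs between libraries. Alignment to coding genes leaves out reads of other RNA, which raises the shares given. Strandedness was not given in the sources used here.

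The 6 FPKM and count columns of the other samples and 4 columns of the authors' means were not used. NCBI identifiers were paired with symbols and coordinates of RefSeq on GRCm38.p6 for 18070 of 18191 genes. The rest carried no symbol. Shares, ranks and SDs were computed from FPKM with Python 3.11.15 and pandas 2.3.3, with a pseudocount of 0.1 on the log2 scale. Estimated counts were rounded and scaled with TMM of edgeR 4.0.16 and with the size factors of DESeq2 1.42.0 in R 4.3.3. There is 1 group, so no test was made and no p-value is given. The scripts were tested on simulated data.

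A few genes are not reported here. The genes named are the 25 most abundant, up to 6 leading genes and near-absent markers of each list, 10 with the widest and 5 with the steadiest values, those at the threshold, and *Npr1*, *Icam1* and *Itgb4*. Other members were named from the same lists after their values were seen. The members, lists and rule were chosen with earlier results of these data known. Alternatives were the share of counts, other thresholds, pseudocounts and scalings, and leaving out each library. Leaving fat, blood and respiratory chain genes or haemoglobin out of the sum was added after seeing the data. The total per library was 13510970 counts or more, so that counting error is small for the genes named above 10 FPKM.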

Additional observations from a re-analysis of the deposited data

How the results depend on the processing

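Of 64 alternatives over 9 results, 56 moved a value by less than the spread between libraries, or a count by less than 1.5 times, and 8 moved it further. As a share of estimated counts, the 10 most abundant genes took 4.573%, the matrix genes 4.542% and the endothelial genes 0.1721%, because reads follow transcript length and FPKM does not. Without the 10 most abundant genes in list and sum, the contractile genes took 2.01%, since 4 of them are among those 10. With no filter on low values 3420 genes differed over 2-fold, and with a mean FPKM of at least 10 it was 817, as more or fewer genes were counted. Leaving out each library in turn, the number differing over 2-fold ran from 225 without WT 1 to 1387 and the median spread from 0.1075 without WT 1 to 0.2287. The shares without WT 1 stayed within the spread, which for fat and blood is itself set by WT 1: fat 1.385% without it and up to 3.072%, blood 0.5058% without it and up to 1.752%. As a share of counts, blood took 0.4032%.

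No paired analysis was possible because the values come from no test and 1 group. Leaving out mitochondrially encoded genes could not be run, as none were listed. With 3 libraries and 1 that stands apart, the SDs describe these libraries and not the variation of WT aortas. Low genes rest on few counts, and a level under 3 counts cannot be told from 0.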

Other observations

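Lists of other tissues took small shares. Of 13 heart genes listed 5 reached a mean of 1 FPKM, led by *Tnnt2*, a troponin, at 14.9, 7.21 and 7.63 FPKM and *Myl4*, a myosin light chain, at 6.55, 7.37 and 5.11 FPKM. *Myh6* and *Nppa*, which heart muscle cells make in abundance, stood at 0.56, 0.14 and 0.03 FPKM and at 0.18, 0.15 and 0.29 FPKM in WT 1, WT 2 and WT 3, and the heart list summed to 0.00641%, 0.00571% and 0.00453% of the FPKM. Of 14 skeletal muscle genes 4 reached a mean of 1 FPKM, led by *Casq1*, a calcium store protein, at 13.4, 44.0 and 50.7 FPKM. *Myl1*, a myosin light chain, went the other way at 26.9, 5.80 and 8.80 FPKM. The myosin genes *Myh1* and *Myh4* stood at 0.08 FPKM or lower. Of 8 mesothelial genes 1 reached a mean of 1 FPKM, *Krt18* at 3.89, 7.78 and 7.58 FPKM. The mesothelial marker *Msln* had 0.14, 0.30 and 0.28 FPKM, and of the epithelial list *Epcam* had 0.32, 0.21 and 0.29 FPKM. *Scgb1a1*, a secreted protein of airway cells, was seen at 28, 1 and 0 counts. Of 12 Schwann cell genes 9 reached a mean of 1 FPKM. They were led by *Pmp22* at 85.5, 113 and 97.3 FPKM and *Ncam1* at 54.7, 82.5 and 75.0 FPKM. *S100b* had 23.8, 5.69 and 8.94 FPKM, and *Sox10*, a regulator of Schwann cells, had 1.22, 1.32 and 0.62 FPKM. Of 20 neuron genes 2 reached a mean of 1 FPKM, namely *Uchl1*, which other cells also express, at 64.5, 69.4 and 78.6 FPKM and *Stmn2* at 2.76, 2.29 and 2.72 FPKM, while *Th*, the enzyme of sympathetic neurons, was listed at 0 in all 3 libraries.

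Proteases and their inhibitors took 0.935%, 1.05% and 1.03% of the FPKM, an even share. *Cst3* had 1593, 1528 and 1211 FPKM, the cathepsin gene *Ctsb* 789, 503 and 566 FPKM and *Timp3*, an inhibitor of metalloproteinases, 248, 327 and 340 FPKM. The gelatinase gene *Mmp9* was low at 2.71, 1.21 and 0.96 FPKM, as was the macrophage elastase gene *Mmp12* at 0.54, 0.50 and 3.79 FPKM. Members of the list therefore moved in opposite ways between WT 1 and the other libraries.

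Among the 10 genes of widest range, *Retnlg*, a neutrophil gene, had 37.0, 0 and 0 counts and *Cyp2b10*, a cytochrome of the liver and other tissues, 38.7, 1.75 and 0.83 FPKM. *Mup22*, *Mup19*, *H2-Q9* and the histone gene *H3c14* belong to families of near-identical copies, where reads may be shared between members, and their values are not given. *Tmsb15l* had 0, 3.86 and 2.36 FPKM. TATAAA or its reverse complement was found in a promoter of 8.69% of the genes with a mean of at least 1 FPKM and of 16.6% of those below it, and of 15.7% of all genes with a promoter in the table.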
